A study of Mus musculus with 37 samples.

Results

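Pdk4, Angptl4, Cpt1a, Slc25a20, Plin2, Cd36, Fabp4, Ucp2 and Ucp3 are used across tissues as marker targets of the peroxisome proliferator-activated receptors (PPARs). They were taken from the count files by gene symbol, as 9 of the 35290 genes counted, and were followed through every vector and treatment group. A filter on low counts kept 8 of them among the 15699 genes tested, and Fabp4, with 2 reads in all 37 libraries together, was not kept. Pdk4 passed that filter through the groups in which it was high, so its being tested already implied a difference.

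RNA was sequenced from C57BL/6 mouse pre-B cells of adult bone marrow, transduced with BCR-ABL1, which is the kinase fusion of Philadelphia-positive leukemia. All cells, controls included, lacked the tumor suppressor Arf and grew without added cytokines. The MIG cells carried an empty vector that expresses green fluorescent protein, and the IK6 cells carried this vector with the IK6 isoform of IKAROS, a B-lineage transcription factor, which acts as a dominant negative. Each was given the solvent DMSO, or 1 of 4 compounds at 1 µM dissolved in it: ATRA (all-trans retinoic acid), bexarotene, carbacyclin, and NOE (N-oleoylethanolamine). The 10 groups held 4 libraries each, except 3 for bexarotene in each vector and 3 for IK6 cells with carbacyclin. The treatment time, and whether libraries came from separate cultures or clones, were not given in the sources used here, and p-values therefore cover the spread among libraries only, which may be technical.

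PPARs are nuclear receptors for fatty acids and their derivatives that bind DNA as a pair with a retinoid X receptor (RXR). The pair can be switched on from either side, by a PPAR ligand or by an RXR ligand. Its target genes serve fatty acid uptake, entry into mitochondria, oxidation and storage, and a gene of this kind can answer to PPARα, PPARδ or PPARγ depending on which is present. ATRA is the endogenous agonist for retinoic acid receptors, bexarotene is a synthetic RXR ligand, carbacyclin is a stable analog of prostacyclin known to activate PPARα and PPARδ, and NOE is a fatty acid amide known as a PPARα ligand and as a ceramidase inhibitor.

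RefSeq promoter windows for the mouse build GRCm38.p6, from 250 bases before to 50 bases after the gene start, were matched for 7 of the 9 genes. The counts were made on build mm9, so these windows give sequence context only. The 4 shown are those of the mitochondrial fuel genes Pdk4 (chr6:5496229-5496528, minus strand), Cpt1a (chr19:3323051-3323350, plus strand) and Slc25a20 (chr9:108661886-108662185, plus strand), which moved together with most compounds, and of the lipid receptor gene Cd36 (chr5:17835847-17836146, minus strand), which followed another pattern. Each is printed 5′ to 3′ on the strand of its gene. Capitals mark a window that matches at least 10 of the 12 fixed letters of DR1, the PPAR and RXR response element AGGTCANAGGTCA, on either strand, or a whole half-site, which reads AGGTCA on the strand shown and TGACCT if it lies on the opposite strand.
Pdk4: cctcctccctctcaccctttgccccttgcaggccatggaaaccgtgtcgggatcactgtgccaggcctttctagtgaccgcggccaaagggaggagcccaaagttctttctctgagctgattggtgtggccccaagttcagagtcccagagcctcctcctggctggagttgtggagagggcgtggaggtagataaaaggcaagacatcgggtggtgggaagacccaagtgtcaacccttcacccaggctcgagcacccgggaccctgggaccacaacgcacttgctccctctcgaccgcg
Cpt1a: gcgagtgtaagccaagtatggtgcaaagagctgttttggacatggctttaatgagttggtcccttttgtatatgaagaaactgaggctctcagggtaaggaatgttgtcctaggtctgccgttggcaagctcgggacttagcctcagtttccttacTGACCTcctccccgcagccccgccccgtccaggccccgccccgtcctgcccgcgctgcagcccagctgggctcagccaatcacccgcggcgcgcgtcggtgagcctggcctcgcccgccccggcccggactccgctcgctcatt
Slc25a20: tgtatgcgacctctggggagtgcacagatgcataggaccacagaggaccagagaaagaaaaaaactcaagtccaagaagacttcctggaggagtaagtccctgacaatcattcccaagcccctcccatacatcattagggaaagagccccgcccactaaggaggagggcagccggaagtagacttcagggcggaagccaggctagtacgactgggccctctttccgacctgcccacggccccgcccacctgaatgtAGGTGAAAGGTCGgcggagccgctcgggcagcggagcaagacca
Cd36: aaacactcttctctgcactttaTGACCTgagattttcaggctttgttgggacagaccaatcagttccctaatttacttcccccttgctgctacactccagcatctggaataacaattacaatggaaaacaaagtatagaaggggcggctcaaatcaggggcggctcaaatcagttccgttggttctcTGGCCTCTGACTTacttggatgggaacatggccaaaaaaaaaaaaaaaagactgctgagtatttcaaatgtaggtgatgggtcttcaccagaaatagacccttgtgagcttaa

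The Slc25a20 window AGGTGAAAGGTCG lies 7 to 19 bases into the transcribed part, and the Cd36 window TGGCCTCTGACTT lies 63 to 51 bases before the start, on the opposite strand. The downstream end of the Cd36 window was not found in a GENCODE transcript of that gene, as it was for the other 6, so distances from the Cd36 start are uncertain. Plin2 held GGACCCCTGACCT on the opposite strand, 225 to 213 bases before the start, and Ucp3 held AGGTTTCAGGTCA, 51 to 39 bases before it. Pdk4, Cpt1a and Ucp2 matched no more than 8 letters, and Cpt1a held a lone half-site. Of all 32851 promoter windows of this length, 3.86% matched at least 10 letters, 79.8% matched at least 8, 0.0396% held the exact DR1 and 16.3% held a half-site on either strand, windows with a DR1 included. A match describes the letters in the window and nothing about binding. Genes with a near match and genes without one both rose with the compounds, as the values below show.

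Library depth ran from 16478899 to 80388667 counts, with a median of 35101670. Levels are given as counts-per-million values (CPM), with TMM scaling, as mean ± SD, and differences as log2 fold change ± SE from edgeR's quasi-likelihood test with Benjamini-Hochberg adjustment over 15699 genes at a threshold of 0.05. The 8 pre-B markers fixed as a list were read in all 37 libraries, with a summed level from 3620 to 7900 CPM. Ikzf1, the gene from which IK6 derives, read 204 to 364 CPM over 19 MIG libraries and 350 to 537 CPM over 18 IK6 libraries, and the files do not separate vector from endogenous reads. In 3 MIG libraries ribosomal protein genes took 12.5 to 15.5% of counts, against 7.31 to 11.5% in the other 34. These were DMSO replicate 3, bexarotene replicate 3 and carbacyclin replicate 4, and each was also the highest of its group for Slc25a20, Plin2, Angptl4, Cd36 and Ucp2. The part of this share in those results was not tested, and calls of members that change without the 3 libraries are named beside the result. For the other pathway genes only the number called was recomputed without these libraries, not the call of each gene.

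Between 4 and 7 of the 8 tested members rose with ATRA, bexarotene and carbacyclin, and 1 or 2 did with NOE. With ATRA 4 of the 8 tested members rose in MIG, where 20.6% of all tested genes rose, and none fell, where 21.2% did. In IK6 with ATRA 7 rose, against 22.7% of all genes, and 1 fell, against 20.9%. With bexarotene 6 rose in MIG, against 19.9% of all genes, and 1 fell, against 18.2%, and in IK6 6 rose, against 22.3%, and none fell, against 19.4%. With carbacyclin 6 rose in MIG, against 24.7% of all genes, and 1 fell, against 23.3%, and in IK6 6 rose, against 20.8%, and none fell, against 18.8%. With NOE 1 rose in MIG, against 22.6% of all genes, and 3 fell, against 22.3%. In IK6 with NOE 2 rose, against 22.8%, and 2 fell, against 18.2%, which is near the background. The 4 comparisons of a vector share its DMSO libraries, so an unusual DMSO value touches all of them. Pdk4 is among the members that rose with ATRA, bexarotene and carbacyclin in both vectors. It was tested because of groups in which it was high, so these counts include a gene whose difference was already implied. The same holds for its calls in the other comparisons below.

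**Figure D1:**
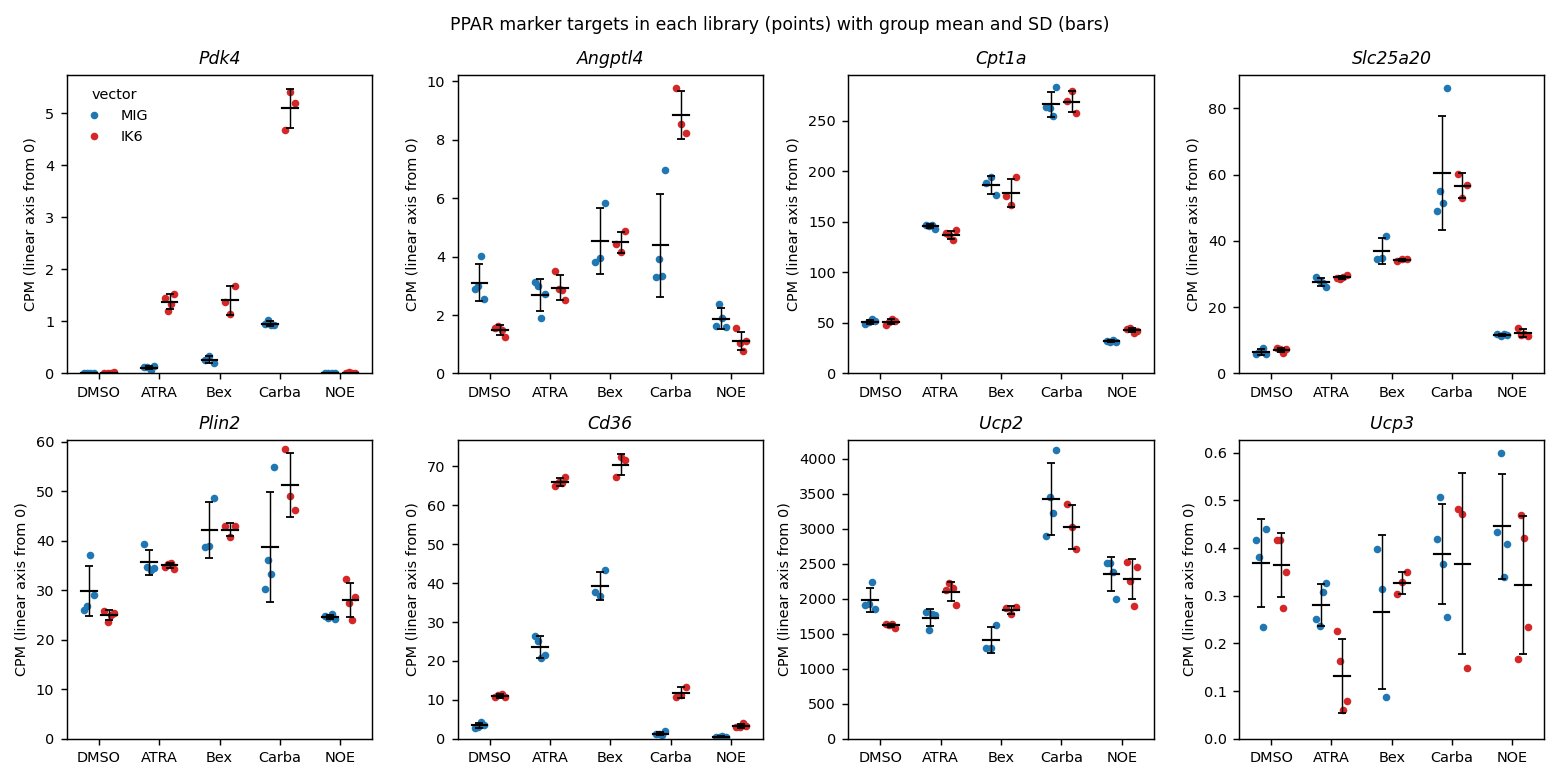
Level of 8 members in CPM (linear axes from 0) in each of the 37 libraries, by treatment, with MIG in blue and IK6 in red, and the group mean and SD as bars. Pdk4 is near 0 with DMSO and NOE and reaches 4.69 to 5.42 CPM in IK6 with carbacyclin, Cpt1a and Slc25a20 climb alike in both vectors, and Cd36 is highest with ATRA and bexarotene.

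Pdk4 encodes pyruvate dehydrogenase kinase 4, which shuts pyruvate out of the citric acid cycle when fatty acids are burned. It was silent at this depth with DMSO or NOE and rose with the other 3 compounds, to higher levels in IK6 than in MIG. No read was counted in the 4 MIG libraries with DMSO, which allows up to 0.0225 CPM over the group (3 counts, counting error only), or in the 4 MIG libraries with NOE. IK6 cells had 1 read in 4 libraries with DMSO and 1 read in 4 with NOE.

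With ATRA the 4 MIG libraries had 0.126, 0.118, 0.0614 and 0.149 CPM of Pdk4 and the 4 IK6 libraries had 1.44, 1.198, 1.35 and 1.53. With bexarotene the 3 MIG libraries had 0.253, 0.334 and 0.202 CPM and the 3 IK6 libraries had 1.38, 1.15 and 1.69. With carbacyclin the 4 MIG libraries had 0.942, 1.03, 0.929 and 0.924 CPM and the 3 IK6 libraries had 4.69, 5.42 and 5.20. Every library with one of these compounds was above every DMSO library of its vector, and every IK6 library was above every MIG library with the same compound. In MIG, levels from pooled reads were compared with the floor of 3 counts over the DMSO group. They were 5.39-fold that floor with ATRA, 12.2-fold with bexarotene and 43.2-fold with carbacyclin, from 14, 31 and 161 reads. The counting error of these reads is not included. In IK6 the ratios to the single DMSO read were 206 with ATRA (95% counting interval 36.6 to 8170), 225 with bexarotene (39.8 to 8950) and 790 with carbacyclin (141 to 31300). All 6 rises passed the threshold, with adjusted p from 1.54e-18 to 2.37e-05 for the fitted changes. Pdk4 was tested because of groups in which it was high. These p-values, and those given for Pdk4 below, therefore add no support beyond the reads themselves.

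Pdk4 was 12.1-fold higher in IK6 than in MIG with ATRA (log2 difference 3.46 ± 0.25, adjusted p = 5.98e-12), 5.35-fold higher with bexarotene (2.39 ± 0.23, adjusted p = 4.94e-09) and 5.33-fold higher with carbacyclin (2.40 ± 0.16, adjusted p = 1.52e-12). From high to low, the order of group means was IK6 with carbacyclin, IK6 with bexarotene and with ATRA, whose libraries overlapped, then MIG with carbacyclin, with bexarotene and with ATRA. In these bulk libraries more cells that make Pdk4 and more Pdk4 RNA per cell cannot be told apart, and this holds for every gene described here. Whether the compound effect itself differed between vectors could not be read from Pdk4: the interaction terms did not pass the threshold (adjusted p = 0.852 with ATRA, 0.844 with bexarotene and 0.856 with carbacyclin), and with both DMSO groups at or near 0 reads their intervals were wide, for carbacyclin from -1.43 to 3.12 on the log2 scale.

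Cpt1a and Slc25a20 act in sequence at the mitochondrial membranes. Cpt1a, carnitine palmitoyltransferase 1A, links long-chain fatty acids to carnitine, the controlled step of their entry, and Slc25a20 is the carnitine/acylcarnitine translocase that carries the product across the inner membrane. Both rose with ATRA, more with bexarotene and most with carbacyclin, to nearly the same levels in MIG and IK6. They parted with NOE, with which Cpt1a fell and Slc25a20 rose.

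Cpt1a stood at 48.9, 50.7, 53.5 and 51.9 CPM in the MIG libraries with DMSO and at 48.4, 51.3, 53.8 and 51.8 CPM in the IK6 libraries. With carbacyclin it reached 264, 263, 255 and 283 CPM in MIG and 270, 279 and 258 CPM in IK6. With NOE it read 32.1, 31.6, 32.9 and 31.3 CPM in MIG and 43.9, 45.1, 40.5 and 42.0 CPM in IK6. The vectors thus overlapped with DMSO and carbacyclin, and all IK6 libraries stayed above all MIG libraries with NOE. With ATRA all IK6 libraries (131.8 to 141.7 CPM) lay below all MIG libraries (143.1 to 147.3 CPM), a difference that did not pass the threshold (adjusted p = 0.161). Group means with ATRA were 146 ± 1.91 CPM in MIG (n = 4) and 137 ± 4.16 CPM in IK6 (n = 4), and with bexarotene 187 ± 9.04 (n = 3) and 179 ± 14.2 (n = 3).

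In MIG the Cpt1a change was 1.51 ± 0.05 on the log2 scale with ATRA (adjusted p = 6.37e-22), 1.87 ± 0.05 with bexarotene (1.74e-23), 2.38 ± 0.05 with carbacyclin (3.47e-27) and -0.68 ± 0.05 with NOE (2.82e-13). In IK6 it was 1.42 ± 0.05 (2.24e-21), 1.80 ± 0.05 (5.95e-23), 2.39 ± 0.05 (2.06e-26) and -0.26 ± 0.05 (5.91e-05) in the same order. Only the NOE response passed the test for a difference between vectors among the 4 compounds, by 0.42 ± 0.07 (adjusted p = 7.02e-05). For carbacyclin the interval of that difference ran from -0.13 to 0.16, for ATRA from -0.23 to 0.05 and for bexarotene from -0.22 to 0.09. From high to low the Cpt1a order was carbacyclin, bexarotene, ATRA, DMSO and NOE in each vector, with no overlap of libraries between successive treatments.

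Slc25a20 stood at 6.00, 6.33, 7.80 and 5.79 CPM in MIG with DMSO and at 7.57, 7.45, 6.32 and 7.45 CPM in IK6. With carbacyclin it reached 49.1, 55.1, 51.5 and 86.1 CPM in MIG and 60.2, 52.8 and 56.9 CPM in IK6. With NOE it read 12.0, 11.4, 11.9 and 11.5 CPM in MIG and 13.8, 11.7, 11.8 and 11.3 CPM in IK6. Each compound lifted every library above the DMSO libraries of its vector, and the MIG library at 86.1 CPM was the one with the high ribosomal protein share. The change was 2.09 ± 0.12 with ATRA in MIG and 2.01 ± 0.12 in IK6, 2.52 ± 0.13 and 2.25 ± 0.13 with bexarotene, 3.23 ± 0.12 and 2.98 ± 0.13 with carbacyclin, and 0.86 ± 0.12 and 0.75 ± 0.12 with NOE. Their adjusted p ran from 1.71e-20 to 3.75e-06.

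No vector difference of Slc25a20 passed the threshold in any treatment, and neither did an interaction, whose 95% intervals together ran from -0.63 to 0.26 on the log2 scale. Without the 3 libraries of high ribosomal protein share, IK6 exceeded MIG with DMSO by 0.26 (adjusted p = 0.00916, against 0.16 and 0.416 with them). The order of groups was carbacyclin, bexarotene, ATRA, NOE and DMSO, and the vectors overlapped at each step except bexarotene, at which the lowest MIG library (34.53 CPM) lay just above the highest IK6 library (34.46 CPM).

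Cd36, a scavenger receptor that takes up long-chain fatty acids and oxidized lipoproteins, split the compounds in another way. It rose severalfold with ATRA and bexarotene, fell with NOE, fell with carbacyclin in MIG, and was higher in IK6 than in MIG under every treatment. In MIG the libraries read 2.89, 2.95, 4.35 and 3.66 CPM with DMSO and 26.5, 25.2, 20.8 and 21.4 CPM with ATRA. With bexarotene they read 37.7, 36.8 and 43.3 CPM, with carbacyclin 1.10, 1.22, 1.04 and 1.98 CPM, and with NOE 0.476, 0.400, 0.623 and 0.544 CPM. All MIG libraries with a retinoid were above, and all with carbacyclin or NOE below, all those with DMSO.

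In IK6 the Cd36 libraries read 10.6, 11.2, 11.5 and 10.6 CPM with DMSO and 64.9, 65.9, 65.7 and 67.3 CPM with ATRA. With bexarotene they read 67.4, 72.5 and 71.6 CPM, with carbacyclin 10.7, 11.3 and 13.4 CPM, and with NOE 3.08, 3.14, 4.15 and 3.21 CPM. The carbacyclin and DMSO libraries overlapped, and the other treatments stood apart from DMSO. The log2 change was 2.78 ± 0.13 with ATRA in MIG (adjusted p = 2.14e-18) and 2.58 ± 0.12 in IK6 (1.29e-18), and 3.52 ± 0.13 (4.06e-20) and 2.68 ± 0.12 (4.59e-18) with bexarotene. With carbacyclin it was -1.37 ± 0.15 in MIG (5.46e-09) and 0.10 ± 0.12 in IK6, where the interval ran from -0.16 to 0.35 (adjusted p = 0.576). With NOE it was -2.77 ± 0.18 in MIG (1.23e-14) and -1.70 ± 0.12 in IK6 (3.70e-13).

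Cd36 in IK6 exceeded MIG 3.18-fold with DMSO, 2.81-fold with ATRA, 1.79-fold with bexarotene, 8.86-fold with carbacyclin and 6.65-fold with NOE, with no overlap of libraries in any treatment. The response differed between vectors by -0.84 ± 0.18 with bexarotene (adjusted p = 0.00248), 1.47 ± 0.20 with carbacyclin (2.04e-06) and 1.06 ± 0.23 with NOE (0.00147) on the log2 scale. With ATRA the difference was -0.20 ± 0.17 (adjusted p = 0.512), with an interval from -0.54 to 0.14.

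Cd36 is also expressed by macrophages and endothelium, whose marker lists were read in the same libraries. The summed level of 12 macrophage and monocyte markers spanned 90.2 to 106 CPM for MIG libraries given DMSO, 151 to 171 for ATRA, 142 to 165 for bexarotene, 94.8 to 145 for carbacyclin and 118 to 129 for NOE. In IK6 the sums, in the same order of treatments, were 84.5 to 89.3, 156 to 161, 132 to 144, 114 to 132 and 131 to 158 CPM, and their part in the Cd36 result was not tested. Over all libraries Ctss alone made up 70.2 to 136 CPM of these sums, Mrc1 3.54 to 18.2, Itgam 1.70 to 15.4, Lyz2 0.208 to 15.4 and Cd68 2.48 to 7.95 CPM. The other 7 were each below 1 CPM in every library, and of these Emr1, which encodes F4/80, stayed at or below 0.157 CPM, Mertk at or below 0.0608 CPM, and Marco had no read. The sum of 8 endothelial markers, in that order of treatments, was 58.7 to 64.4, 97.8 to 107, 109 to 117, 90.7 to 99.1 and 82.0 to 87.6 CPM in MIG. In IK6 it was 46.6 to 56.1, 67.4 to 71.1, 91.6 to 101, 63.6 to 67.0 and 59.2 to 63.3 CPM, and its part in the Cd36 result was not tested either. Pecam1 made up nearly all of that sum, while Cdh5 stayed at or below 0.425 CPM and Kdr and Tie1 at or below 0.0566 CPM. Of 8 adipocyte markers Lipe was at 7.12 to 17.3 CPM, Adipoq, Plin1 and Cidec were at or below 0.0742 CPM, and Lep had no read. Of 8 T and NK cell markers the sum was 0.491 to 3.31 CPM in MIG libraries and 8.07 to 42.1 CPM in IK6 libraries, of which Thy1 made up 0.246 to 41.2 CPM, with Cd3e at or below 0.219 CPM, and its part in the vector differences was not tested. Of 10 erythroid and megakaryocyte markers the sum ran from 5.79 to 40.3 CPM, with Hbb-b1 at 1.11 to 37.5 CPM and no read of Ppbp.

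**Figure D2:**
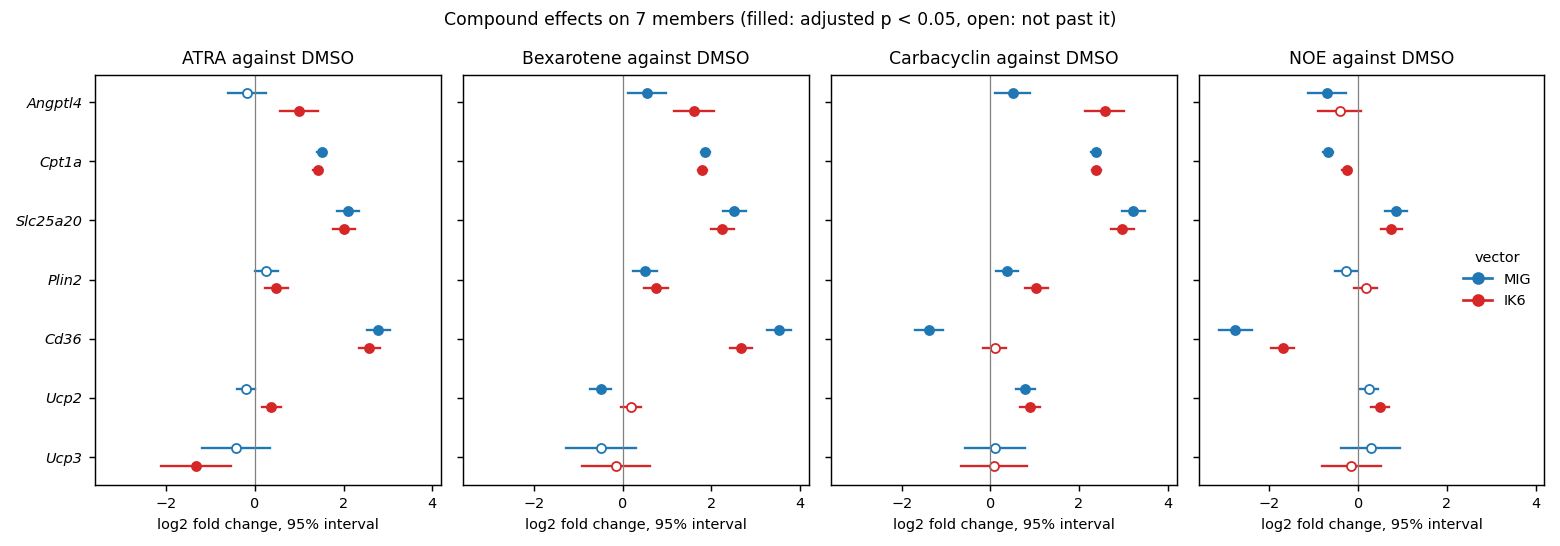
Log2 fold change against DMSO with its 95% interval for 7 members, by compound, in MIG (blue) and IK6 (red), with filled points past the adjusted threshold of 0.05. Cpt1a and Slc25a20 move alike in both vectors with ATRA, bexarotene and carbacyclin, Angptl4 rises further in IK6, and Cd36 moves to opposite sides with the retinoids and with NOE. Pdk4, with no read in MIG and 1 in IK6 with DMSO, is left out.

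Angptl4 encodes a secreted inhibitor of lipoprotein lipase. It started lower in IK6 and ended higher there with carbacyclin. With DMSO the MIG libraries had 2.89, 2.99, 4.04 and 2.54 CPM and the IK6 libraries 1.56, 1.64, 1.498 and 1.24 CPM. With carbacyclin the MIG libraries had 3.30, 3.93, 3.33 and 6.98 CPM and the IK6 libraries 9.78, 8.54 and 8.24 CPM. The vectors did not overlap in either treatment, with IK6 below MIG in the first and above it in the second. IK6 differed from MIG by -1.07 ± 0.22 with DMSO (adjusted p = 0.000225), 1.02 ± 0.20 with carbacyclin (0.00011) and -0.78 ± 0.23 with NOE (0.00756) on the log2 scale.

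In IK6 Angptl4 rose by 1.00 ± 0.21 with ATRA (adjusted p = 0.000278), 1.61 ± 0.22 with bexarotene (4.89e-07) and 2.58 ± 0.22 with carbacyclin (1.09e-11). Its change with NOE was -0.42 ± 0.23 (adjusted p = 0.162). The change in MIG was -0.17 ± 0.21 with ATRA (0.554), 0.55 ± 0.21 with bexarotene (0.0383), 0.50 ± 0.20 with carbacyclin (0.0367) and -0.71 ± 0.21 with NOE (0.00586). The ATRA, bexarotene and carbacyclin responses were larger in IK6 by 1.17 ± 0.30 (0.00926), 1.06 ± 0.31 (0.0357) and 2.08 ± 0.29 (4.31e-06).

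The bexarotene and carbacyclin calls for Angptl4 in MIG depended on single libraries, while its fall with NOE there kept its call under all 8 alternatives and all 8 fits without 1 library. With the replicate number as a block the bexarotene rise was 0.56 with an adjusted p of 0.0527. Without bexarotene replicate 3 the bexarotene change was 0.33 (adjusted p = 0.272), and without carbacyclin replicate 4 the carbacyclin change was 0.22 (adjusted p = 0.306). Leaving out DMSO replicate 1, 2 or 4 also ended both calls, with adjusted p from 0.0777 to 0.118. Without the 3 libraries of high ribosomal protein share the carbacyclin rise was 0.33 (adjusted p = 0.0817), and in fits of the compared groups alone the adjusted p was 0.0745 for bexarotene and 0.198 for carbacyclin. The bexarotene interaction was lost in 9 of 14 fits that left out 1 library, 5 of them in IK6 (DMSO replicates 1, 3 and 4, and bexarotene replicates 1 and 3) and the others in MIG (DMSO replicates 2 and 3, and bexarotene replicates 1 and 2), with adjusted p from 0.0503 to 0.112.

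Plin2 coats lipid droplets and rises when cells store neutral lipid. It moved less than the genes of mitochondrial entry, and again furthest with carbacyclin in IK6. The MIG libraries had 26.1, 26.9, 37.2 and 29.1 CPM with DMSO and 30.3, 36.2, 33.2 and 55.0 CPM with carbacyclin, and the groups overlapped. The IK6 libraries had 25.9, 23.6, 25.0 and 25.5 CPM with DMSO and 58.7, 49.0 and 46.2 CPM with carbacyclin, with no overlap. In IK6 Plin2 rose by 0.49 ± 0.12 with ATRA (adjusted p = 0.00164), 0.76 ± 0.13 with bexarotene (1.89e-05) and 1.04 ± 0.13 with carbacyclin (8.83e-08).

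In MIG Plin2 changed by 0.26 ± 0.12 with ATRA (adjusted p = 0.0912), 0.50 ± 0.13 with bexarotene (0.00272), 0.38 ± 0.12 with carbacyclin (0.0114) and -0.27 ± 0.12 with NOE (0.0718), and in IK6 by 0.17 ± 0.12 with NOE (0.303). The carbacyclin response was larger in IK6 by 0.66 ± 0.18 (adjusted p = 0.0151). Without MIG carbacyclin replicate 4 the rise in MIG was 0.18 (adjusted p = 0.123), and in a fit of the compared groups alone it had an adjusted p of 0.188. Without MIG DMSO replicate 3 the ATRA change passed the threshold at 0.39 (adjusted p = 0.0114), and so it did without the 3 libraries of high ribosomal protein share, at 0.38 (adjusted p = 0.000163). The interaction was lost without IK6 carbacyclin replicate 1 (0.55, adjusted p = 0.0756) and in the fit of its groups alone (adjusted p = 0.137). IK6 exceeded MIG by 0.41 ± 0.13 with carbacyclin (0.015), and this was lost without MIG carbacyclin replicate 1 or 3 or IK6 carbacyclin replicate 1, with adjusted p from 0.0649 to 0.131, and in the fit of the compared groups alone (adjusted p = 0.214).

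Ucp2 and Ucp3 are mitochondrial anion carriers of the uncoupling protein family. Ucp2 was by far the most abundant member, and carbacyclin raised it in both vectors. It read 1906, 1930, 2235 and 1860 CPM in MIG with DMSO and 1640, 1624, 1634 and 1586 CPM in IK6. With carbacyclin it read 2896, 3461, 3225 and 4126 CPM in MIG and 3350, 3025 and 2717 CPM in IK6, above all DMSO libraries in both. The change was 0.79 ± 0.10 in MIG (adjusted p = 1.34e-07) and 0.90 ± 0.11 in IK6 (5.55e-08).

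The retinoids moved Ucp2 in ways that differed between vectors. With bexarotene it fell by 0.49 on the log2 scale in MIG (SE 0.11, adjusted p = 0.00068), to 1300, 1298 and 1623 CPM, and changed by 0.18 ± 0.11 in IK6 (0.194), to 1866, 1779 and 1882 CPM, a change that passed in the fit of the compared groups alone (0.17, adjusted p = 0.00896). With ATRA it changed by -0.20 ± 0.10 in MIG (0.13) and rose by 0.38 ± 0.10 in IK6 (0.00374). The differences between vectors were 0.57 ± 0.15 for ATRA (adjusted p = 0.00929) and 0.68 ± 0.16 for bexarotene (0.0068). With NOE Ucp2 rose by 0.49 ± 0.10 in IK6 (0.000226) and changed by 0.25 ± 0.10 in MIG (0.0537). The MIG change with NOE passed the threshold under 5 of 8 alternatives, without the 3 libraries of high ribosomal protein share for example at 0.33 (adjusted p = 0.00359).

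Direct differences of Ucp2 between the vectors were small and fragile. With DMSO IK6 was lower by 0.29 ± 0.10 (log2 difference -0.29, adjusted p = 0.036), and each of 8 fits that left out 1 library ended that call (adjusted p from 0.0536 to 0.135), as did leaving out the 3 libraries of high ribosomal protein share (-0.22, adjusted p = 0.0675). With ATRA IK6 was higher by 0.28 ± 0.10 (0.0285) and with bexarotene by 0.39 ± 0.12 (0.0167). The first was lost without MIG ATRA replicate 2 or IK6 ATRA replicate 1, 2 or 3, and the second without MIG bexarotene replicate 1 or 2 or IK6 bexarotene replicate 1. In those fits the adjusted p ran from 0.0536 to 0.114, and the bexarotene difference was also lost in the fit of the compared groups alone (0.40, adjusted p = 0.0538).

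Ucp3 was near the lower limit, at 0.0598 to 0.599 CPM over all libraries and 465 reads in total. Its group means lay between 0.132 and 0.445 CPM, and neighbouring groups overlapped throughout the order. The one change against DMSO that passed was a fall by 1.33 on the log2 scale (SE 0.39, adjusted p = 0.00551) with ATRA in IK6, from 0.416, 0.418, 0.275 and 0.349 CPM to 0.227, 0.162, 0.0598 and 0.0784 CPM. Those groups did not overlap, and the second held 25 reads. The interaction with ATRA did not pass (-0.91 ± 0.55, adjusted p = 0.346), so a difference between vectors was not shown.

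Fabp4, the fatty acid binding protein of fat cells and macrophages, had 1 read in IK6 with carbacyclin and 1 in IK6 with bexarotene and none elsewhere. Over the 4 MIG libraries with DMSO a count of 0 allows up to 0.0225 CPM. Per kilobase of annotated exon, the level in MIG with DMSO was 284 CPM for Ucp2, 8.49 for Plin2, 6.71 for Cpt1a, 1.34 for Slc25a20, 0.964 for Cd36, 0.879 for Angptl4 and 0.118 for Ucp3. In IK6 with DMSO the same quantity was 232 CPM per kilobase for Ucp2 and 3.07 for Cd36, which there ranked above Slc25a20 at 1.49. Exon lengths are those of GENCODE on GRCm38, which is not the annotation of the counts.

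IK6 against MIG within a treatment called 3 or 4 of the 8 tested members. With DMSO 1 (12.5%) was higher, where 13.3% of all tested genes were, and 2 (25%) were lower, against 12.7%. With ATRA 3 (37.5%) were higher, against 20.9% of all genes. With bexarotene 3 (37.5%) were, against 11.1%, and with carbacyclin 4 (50%), against 17.3%. No member was lower with ATRA, bexarotene or carbacyclin, which over 8 genes is not read as a trait of the members. With bexarotene 3298 of the 15699 tested genes were called in either direction, 1736 of them higher. With carbacyclin 5048 were called, 2717 of them higher, and for ATRA only the share that was higher is given. With NOE 2 (25%) were higher, against 18.9%, and 1 (12.5%) lower, against 13.7%. Cd36 was among the higher genes each time, and Pdk4 was with ATRA, bexarotene and carbacyclin. In the tests of the difference in response, 2 members were more positive in IK6 for ATRA (5.34% of all genes), 2 for bexarotene (3.13%), 3 for carbacyclin (5.66%) and 2 for NOE (6.62%), and 1 was more negative for bexarotene (2.56%). Angptl4 was among them for ATRA, bexarotene and carbacyclin, Cd36 for bexarotene, carbacyclin and NOE, Ucp2 for ATRA and bexarotene, Plin2 for carbacyclin and Cpt1a for NOE.

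**Figure D3:**
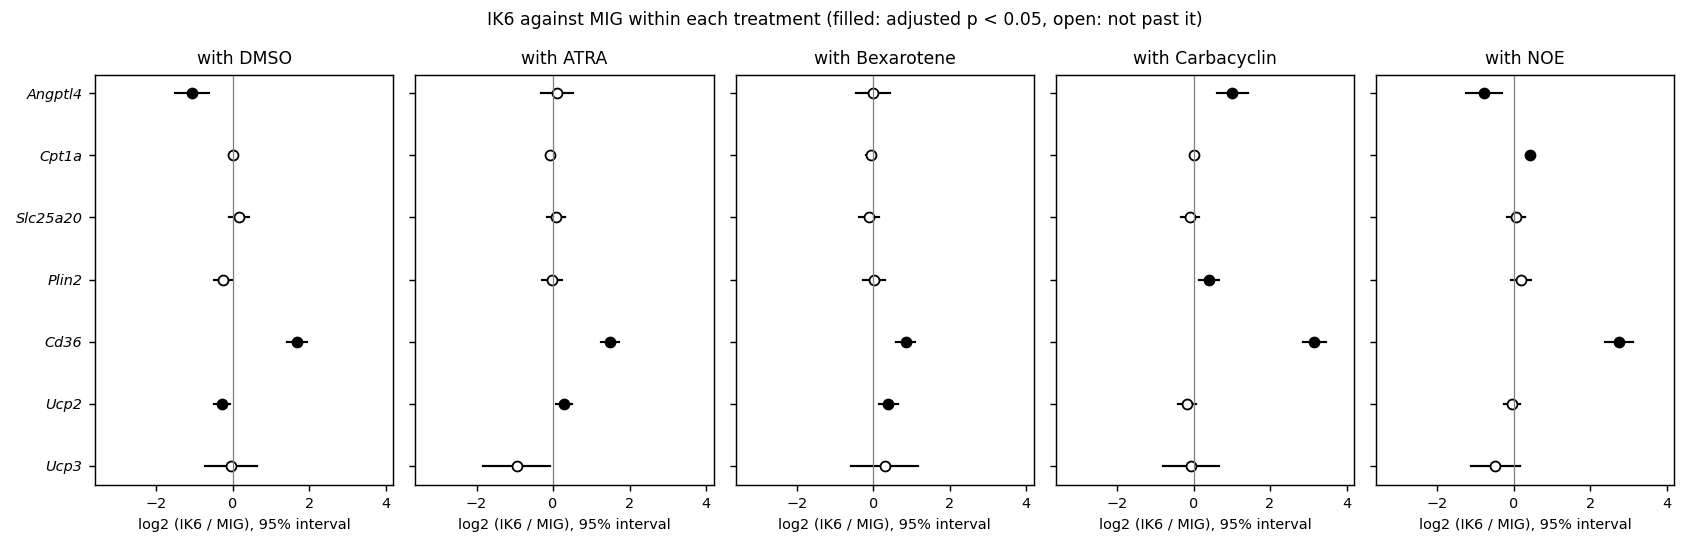
Log2 difference of IK6 over MIG within each treatment, with its 95% interval, for 7 members, filled where the adjusted p is below 0.05. Cd36 lies above 0 in all 5 treatments, Angptl4 moves from -1.07 with DMSO to 1.02 with carbacyclin, and Slc25a20 stays at 0 within its interval. Pdk4 is left out because MIG had no read with DMSO or NOE.

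Bexarotene and ATRA, both given at 1 µM, were compared directly in each vector. The 2 are retinoids of different structure, bexarotene a synthetic aromatic compound and ATRA the acid form of vitamin A with its polyene chain. In MIG 5 members were higher with bexarotene, against 12.6% of all tested genes, and in IK6 3 were, against 11.7%. Cpt1a was higher with bexarotene by 0.36 ± 0.05 in MIG (adjusted p = 2.41e-06) and 0.38 ± 0.05 in IK6 (1.04e-06). Cd36 was higher by 0.74 ± 0.12 in MIG (9.08e-06), while in IK6 the difference was 0.10 ± 0.11 with an interval from -0.14 to 0.33 (0.635). Slc25a20 was higher by 0.42 ± 0.12 in MIG (0.00797), lost without MIG bexarotene replicate 3 (0.33, adjusted p = 0.0757), and differed by 0.24 ± 0.12 in IK6 (0.166).

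Pdk4 was 2.32-fold higher with bexarotene than with ATRA in MIG (log2 difference 1.15 ± 0.34, adjusted p = 0.0385) from 31 and 14 reads, and 6 of 7 fits that left out 1 library ended that call, all but the fit without bexarotene replicate 3 (adjusted p up to 0.284). In IK6 the interval of the Pdk4 difference ran from -0.28 to 0.42. Angptl4 was higher with bexarotene by 0.72 ± 0.22 in MIG (0.0126) and 0.61 ± 0.21 in IK6 (0.034). The first was lost without MIG ATRA replicate 3 or bexarotene replicate 3, and the second in 5 of 7 such fits, with adjusted p up to 0.136 and 0.127. Ucp3 was 2.48-fold higher in IK6 (1.18 ± 0.43, adjusted p = 0.0479), and 6 of 7 such fits ended that call. Ucp2 lay on the other side, with a difference of -0.30 ± 0.11 in MIG (adjusted p = 0.0541) that passed as lower under 5 of 8 alternatives, without the 3 libraries of high ribosomal protein share for example at -0.43 (adjusted p = 0.00202). In IK6 it was -0.19 ± 0.11 (0.255). In the fit of the compared groups alone, Plin2 (0.27, adjusted p = 0.000442) and Slc25a20 (0.24, 0.00146) passed as higher and Ucp2 (-0.19, 0.026) as lower in IK6.

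Carbacyclin and NOE were the other pair compared directly. Carbacyclin exceeded NOE for 7 of the 8 tested members in each vector, all but Ucp3, where 26.8% of all tested genes were higher in MIG and 22.6% in IK6. The difference for Cpt1a was 3.06 ± 0.05 in MIG and 2.65 ± 0.05 in IK6, and for Slc25a20 2.37 ± 0.12 and 2.23 ± 0.12. For Angptl4 it was 1.21 ± 0.20 and 3.00 ± 0.22, for Cd36 1.39 ± 0.20 and 1.80 ± 0.13, for Plin2 0.65 ± 0.12 and 0.87 ± 0.13, and for Ucp2 0.54 ± 0.10 and 0.41 ± 0.11. Their adjusted p ran from 9.81e-30 to 0.00286. For Pdk4 the level from pooled reads with carbacyclin in MIG was 52.8-fold the floor of 3 counts over the NOE group. In IK6 it was 895-fold higher than with NOE (95% counting interval 160 to 35400).

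Of the PPAR receptor genes Ppard was expressed and the others were close to 0. With DMSO, Ppard, which encodes PPARδ, had a mean of 57.3 CPM in MIG cells and of 35.9 CPM in IK6 cells, whereas Ppara stayed at or below 0.0703 CPM and Pparg at or below 0.0221 CPM as group means. Ppard was lower in IK6 than in MIG with DMSO by 0.67 ± 0.10 (log2 difference -0.67, adjusted p = 1.09e-06). In MIG it fell by 0.65 on the log2 scale with bexarotene (7.62e-06) and by 0.63 with carbacyclin (1.70e-06) and rose by 0.25 ± 0.10 with NOE (0.0314). In IK6 Ppard rose by 0.37 ± 0.10 with ATRA (0.00209) and 0.87 ± 0.10 with NOE (3.87e-09). All 4 responses of Ppard were more positive in IK6, by 0.48 to 0.78 (adjusted p from 0.000182 to 0.0185).

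Among the partners, Rxrb was at 102 to 123 CPM in all groups and Rxrg had no read. With DMSO Rxra had a mean of 4.77 CPM in MIG cells and of 19.2 CPM in IK6 cells, a log2 difference of 2.00 ± 0.09 (adjusted p = 1.89e-18). Rxra rose with NOE by 1.35 ± 0.09 in MIG (2.29e-14) and 0.73 ± 0.08 in IK6 (5.03e-09) and with carbacyclin by 0.65 ± 0.09 (4.31e-07) and 0.33 ± 0.09 (0.00307). It fell with ATRA and bexarotene in both vectors, by between 0.28 and 0.50 on the log2 scale. The list of receptors and cofactors held 15 genes, 12 of them tested. With ATRA 1 rose and 4 fell in MIG and 2 rose and 4 fell in IK6, with bexarotene 4 fell in each vector, with carbacyclin 1 rose and 5 fell in each, and with NOE 3 rose and 3 fell in MIG and 4 rose and 3 fell in IK6. Over these 8 comparisons with DMSO, 19.9 to 24.7% of all tested genes rose and 18.2 to 23.3% fell, against 0 to 33.3% and 25 to 41.7% of this list, or 0 to 4 and 3 to 5 of its genes. Lpin1, a phosphatidate phosphatase that also acts as a PPAR coactivator, fell by 1.38 with carbacyclin in MIG (2.32e-14) and by 0.76 in IK6 (1.04e-07), and by 1.18 (1.97e-11) and 0.78 (7.33e-08) with bexarotene.

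The wider fatty acid oxidation list, 24 genes of which 20 were tested, moved less than Cpt1a and Slc25a20. With carbacyclin 7 rose and 2 fell in MIG and 8 rose in IK6, with a median change of 0.09 and 0.16 on the log2 scale against 0.02 and 0.01 over all tested genes. With ATRA 6 rose and 4 fell in MIG and 7 rose and 1 fell in IK6, and with bexarotene 4 rose and 3 fell in MIG and 4 rose and 2 fell in IK6. With NOE 4 rose and 6 fell in MIG and 7 rose and 1 fell in IK6. The share that rose was 20% for bexarotene in each vector and for NOE in MIG, near the 19.9, 22.3 and 22.6% of all tested genes, and 40% for carbacyclin in IK6, against 20.8%. It was 35% for carbacyclin in MIG, against 24.7%, and 35% for NOE in IK6, against 22.8%. For ATRA it was 30% in MIG, against 20.6%, and 35% in IK6, against 22.7%. The share that fell was above that of all tested genes only for NOE in MIG (30%, against 22.3%).

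Etfdh, which passes electrons from fatty acid oxidation to ubiquinone, rose with carbacyclin by 1.08 ± 0.05 in MIG (adjusted p = 1.34e-18) and 1.05 ± 0.05 in IK6 (1.58e-17), and by 0.45 to 0.64 with the retinoids. Acadvl, the very long-chain acyl-CoA dehydrogenase, rose with carbacyclin by 0.73 ± 0.08 (6.49e-09) and 0.75 ± 0.09 (2.24e-08). Acot2, a mitochondrial thioesterase whose reads may be shared with its near copy Acot1, rose with bexarotene by 1.46 ± 0.07 (9.77e-17) and 1.95 ± 0.08 (8.30e-20). Pex11a, a peroxisome division gene, fell in MIG by 1.83 with carbacyclin (8.00e-06) and by 1.39 with bexarotene (0.00079). Its carbacyclin response was more positive in IK6 by 1.55 ± 0.47 (0.033).

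The lipid uptake and storage list held 28 genes, of which 18 were tested. With carbacyclin 7 rose and 5 fell in MIG and 9 rose and 2 fell in IK6, with medians of 0.38 and 0.46, and with bexarotene 3 rose and 6 fell in MIG and 6 rose and 6 fell in IK6, with medians of -0.09 and 0.01. With ATRA 7 rose and 4 fell in MIG and 10 rose and 2 fell in IK6, and with NOE 5 rose and 2 fell in MIG and 8 rose and 2 fell in IK6. In MIG 38.9% rose and 27.8% fell with carbacyclin, against 24.7 and 23.3% of all tested genes. With bexarotene there 16.7% rose and 33.3% fell, against 19.9 and 18.2%. With ATRA 38.9% rose and 22.2% fell, against 20.6 and 21.2%, and with NOE 27.8% rose and 11.1% fell, against 22.6 and 22.3%. In IK6 50% rose and 11.1% fell with carbacyclin, against 20.8 and 18.8%. With bexarotene there 33.3% rose and 33.3% fell, against 22.3 and 19.4%. With ATRA 55.6% rose and 11.1% fell, against 22.7 and 20.9%, and with NOE 44.4% rose and 11.1% fell, against 22.8 and 18.2%. Hilpda, an inhibitor of the lipase ATGL, rose with carbacyclin by 1.24 ± 0.17 in MIG (1.70e-07) and 2.04 ± 0.18 in IK6 (4.09e-11). Mgll, monoacylglycerol lipase, rose by 1.28 ± 0.09 (3.31e-14) and 1.09 ± 0.09 (4.50e-12). Slc27a1, a fatty acid transporter, rose with carbacyclin by 1.51 ± 0.14 in IK6 (1.19e-10) and by 0.40 ± 0.13 in MIG (0.0108), a difference of 1.11 ± 0.19 (9.51e-05).

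Acsl1, an acyl-CoA synthetase and itself a known PPAR target, rose with NOE by 0.98 ± 0.05 in MIG (2.74e-18) and 0.93 ± 0.05 in IK6 (2.43e-17), and with carbacyclin by 0.66 ± 0.05 (6.20e-14) and 0.51 ± 0.05 (3.11e-10). Fabp5, a fatty acid binding protein, rose with NOE by 0.61 ± 0.16 in MIG (0.00194) and by 0.89 ± 0.22 more in IK6 (0.00785), and fell with bexarotene by 1.04 in MIG (1.60e-05). Acsl3 fell with bexarotene by 1.16 in MIG (4.75e-15) and by 1.23 in IK6 (1.48e-15), and rose with ATRA by 0.41 ± 0.06 in MIG (1.34e-06).

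Of 13 further target genes 8 were tested. With ATRA 5 rose and 2 fell in MIG and 4 rose and 2 fell in IK6, and with bexarotene 3 rose and 2 fell and 4 rose and 2 fell. With carbacyclin 4 rose and 2 fell in MIG and 3 rose in IK6, and with NOE 4 rose and 1 fell in each vector. The share that fell, 0 to 25%, was near or below the 18.2 to 23.3% of all tested genes, and the share that rose was 37.5 to 62.5%, against 19.9 to 24.7%, over only 8 genes. Abhd5, the coactivator of the lipase ATGL, rose with bexarotene by 1.84 ± 0.20 in MIG (5.58e-09) and 1.81 ± 0.18 in IK6 (5.79e-10), from 0.505 and 0.81 CPM. Pck1, a gluconeogenic enzyme, had 1 read in MIG and 3 in IK6 with DMSO and reached 0.772 CPM and 0.418 CPM with bexarotene. Like Pdk4, Pck1 passed the filter on low counts through groups in which it was higher, so its being tested already implied a difference. The counts over the 8 genes include it. Cat, catalase, rose with ATRA by 0.87 ± 0.04 (2.59e-18) and 0.73 ± 0.04 (2.37e-16), and its change with bexarotene did not pass (adjusted p = 0.951 and 0.931).

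Pdk1, another pyruvate dehydrogenase kinase, fell with bexarotene by 0.89 in MIG (1.90e-10) and by 0.39 in IK6 (0.000233), and with carbacyclin by 0.71 in MIG (1.43e-09). In IK6 with carbacyclin, the group in which Pdk4 was highest, the Pdk1 change was -0.04 ± 0.08 (adjusted p = 0.727). With NOE, with which Pdk4 stayed at or near 0 reads, Pdk1 rose by 0.35 ± 0.07 in MIG (0.000253) and 0.97 ± 0.08 in IK6 (1.50e-12).

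**Figure D4:**
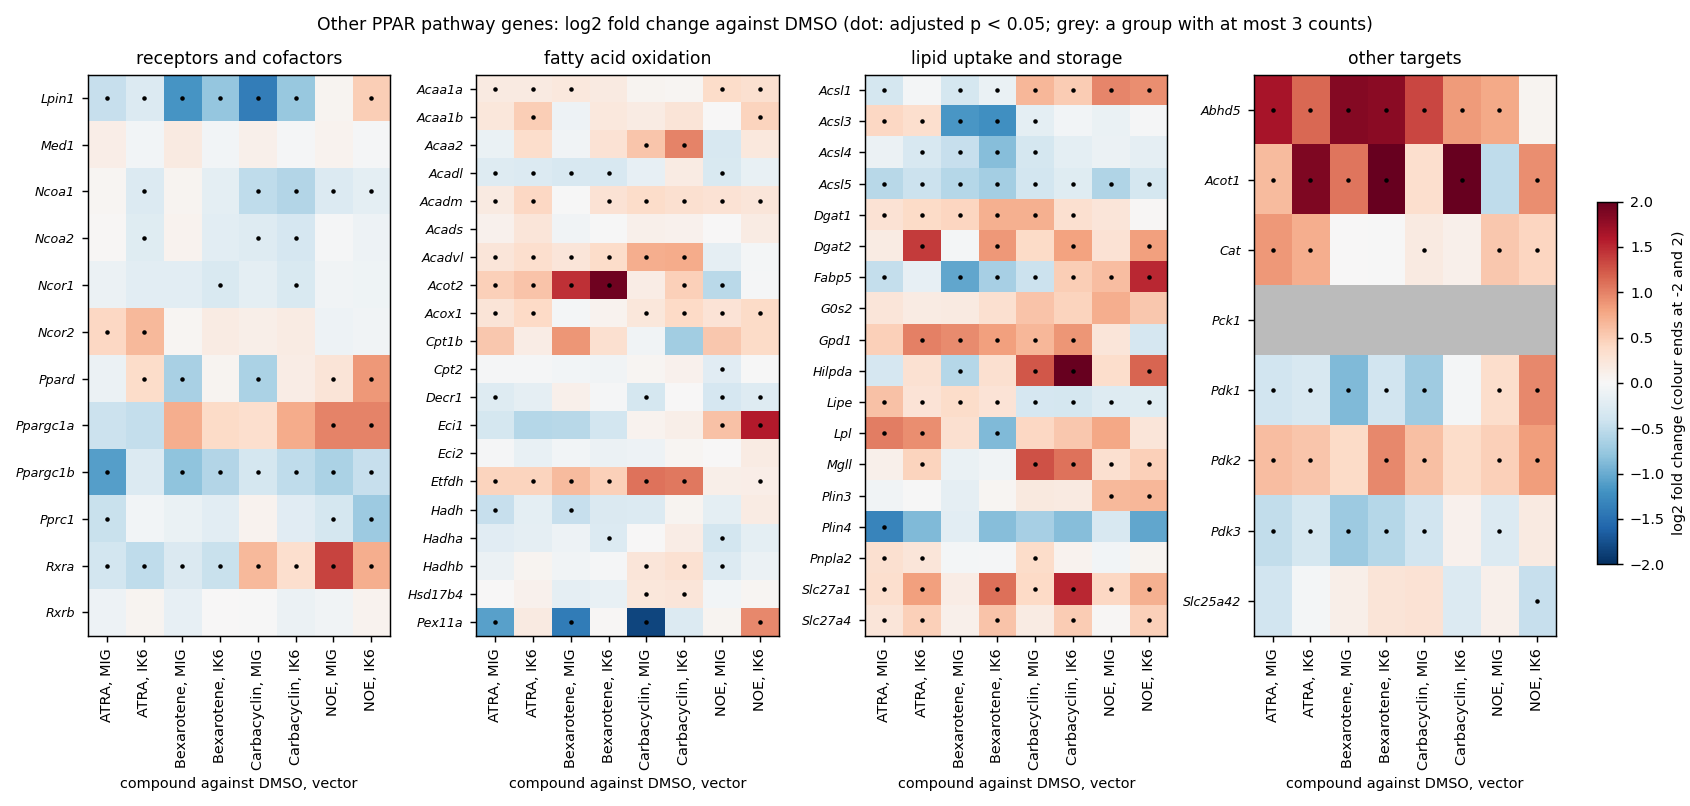
Log2 fold change against DMSO (color, ends at -2 and 2) of the tested genes of 4 PPAR pathway lists, by compound and vector, with a dot where the adjusted p is below 0.05 and grey where a group had at most 3 reads. Etfdh, Acadvl, Mgll and Hilpda are red with carbacyclin, Acot2 with bexarotene and Acsl1 with NOE, and most of the other oxidation genes are pale.

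Over the 37 libraries, the genes whose log2 CPM followed a member most closely were found by Pearson's r, as a description of libraries that share treatments and depth. They were Wdr4 (0.934), Hsph1 (0.911) and Etfdh (0.907) for Pdk4, Nploc4 (0.927), Ercc3 (0.916) and Dnajb11 (0.914) for Cpt1a, and Rufy1 (0.973), Cd74 (0.962) and Vps33a (0.953) for Slc25a20. For Cd36 they were Lipo1 (0.953), F9 (0.949) and Sema5a (0.944), for Angptl4 Rbm19 (0.844), Ywhab (0.838) and Marcksl1 (0.837), and for Plin2 Plekho2 (0.893), Ykt6 (0.890) and Aldh9a1 (0.886). For Ucp2 they were Sit1 (0.933), Tnfsf11 (0.920) and Ifitm2 (0.915). The closest to Ucp3, Ift140, reached 0.722.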

How the data were processed

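RNA-seq counts of 37 mouse libraries in 10 vector and treatment groups were used, 1 deposited file per library. Per the labels' protocols, RNA was extracted with Trizol and prepared with TruSeq RNA v2. The submitters' processing notes name BWA 0.5.9, HTSeq and build mm9. Values in the deposited files are unnormalized counts, with 1 row for each gene. Annotation, counting mode and strand setting were not given in the sources used here, so reads of overlapping or antisense genes cannot be told apart.

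Groups came from the labels. Counts were filtered with edgeR (minimum count 10, minimum total 15), scaled with TMM (trimmed mean of M values) factors, and tested by edgeR's quasi-likelihood method (robust) in a joint fit of the 10 groups that left 27 residual degrees of freedom. Tests are two-sided, with Benjamini-Hochberg adjustment over 15699 genes of a comparison and a threshold of 0.05. In all, 21 comparisons were made. CPM are counts over effective library size. Folds against 0 reads use a floor of 3 counts over the group, and folds against 1 to 3 reads have an exact 95% binomial interval, both for counting error only. Software was edgeR 4.0.16 and DESeq2 1.42.0 under R 4.3.3, then scipy 1.17.1 and matplotlib 3.10.9 under Python 3.11.15.

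The members, the pathway and marker lists and the tests were chosen with earlier results of these data known. Genes named besides the members are up to 4 of a pathway list per comparison with the smallest adjusted p, the PPAR and RXR genes, and the 3 genes most like each member. Values of those genes in other comparisons are given beside them.

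Replicate numbers occur in every group. Deviations of same-numbered libraries correlated at over 0.1 in every pair for bexarotene against DMSO in MIG (0.227 to 0.623) and carbacyclin against NOE in IK6 (0.245 to 0.397), and not in the other 15 pairs of groups. This is a pairing seen in the data, with no label behind it. For bexarotene against DMSO in MIG the value of 0.623 was that of replicate 3, a library of high ribosomal protein share in both groups. The part of that share in the correlations was not tested. Alternatives were other scalings and filters, the replicate block, fits of the compared groups alone, DESeq2, leaving out 3 libraries, and leaving out each library in turn.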

Additional observations from a re-analysis of the deposited data

Results flagged for a closer look

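The members were examined in the groups of 4 libraries, as 54 sets of 1 member in 1 group. In 5 of them 1 library stood far from the other 3. Its gap to the nearest, as a share of the set's range, was above Dixon's 95% critical value. Pdk4 in IK6 with DMSO and with NOE, at 1 read each, also met this rule and was left out because sets of at most 3 reads were not flagged. Chance alone flags about 1 in 20 independent sets, and these sets share libraries. Slc25a20 was high in MIG carbacyclin replicate 4 (0.838 of the range), one of the libraries with a high ribosomal protein share, and low in IK6 DMSO replicate 3 (0.903). Plin2 was high in MIG ATRA replicate 1 (0.859), Cd36 was high in IK6 NOE replicate 3 (0.882) and Ucp2 was low in MIG ATRA replicate 2 (0.833).

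In 10 of 32 tests the response of a member to a compound differed between the vectors, given here as the log2 change in IK6 less that in MIG. Of all tested genes, 5.34% were more positive in IK6 with ATRA, 3.13% with bexarotene, 5.66% with carbacyclin and 6.62% with NOE. With bexarotene 2.56% were more negative. The 32 tests include those of Pdk4, whose responses could not be compared because its DMSO groups were at or near 0 reads. For Angptl4 the difference was 1.17 with ATRA, 1.06 with bexarotene and 2.08 with carbacyclin. For Cd36 it was -0.84 with bexarotene, 1.47 with carbacyclin and 1.06 with NOE. It was 0.57 with ATRA and 0.68 with bexarotene for Ucp2, 0.66 with carbacyclin for Plin2 and 0.42 with NOE for Cpt1a. What sets these differences was not tested.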

How the results depend on the processing

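Across 1236 member results recomputed under 8 alternatives, 20 lost and 19 gained their call, and of 1480 recomputed with 1 library left out, 57 lost and 6 gained it. No called value changed sign, and 66 signs turned where neither value was called. The members called for bexarotene against ATRA in IK6 numbered 3, and 1 without a filter on low counts and 6 in the fit of the compared groups alone. With 1 library left out they numbered 1 to 3, and for bexarotene against ATRA in MIG 3 to 5 (5 with all libraries). The cause was not tested. Member counts of the other 19 comparisons stayed within 1.5 times under every alternative run.

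Counts over all tested genes also moved. In fits of the compared groups alone they went from 7536 to 4521 for carbacyclin against DMSO in MIG, from 5048 to 2376 for IK6 against MIG with carbacyclin, from 8170 to 5233 for carbacyclin against NOE in MIG, from 3441 to 5475 for bexarotene against ATRA in IK6, and from 1536 to 2581 and from 1386 to 889 for the ATRA and carbacyclin interactions. Without the 3 libraries of high ribosomal protein share, IK6 against MIG with bexarotene went from 3298 to 4984 and the carbacyclin interaction to 2253, and without MIG carbacyclin replicate 4 to 2527. The bexarotene interaction went from 894 to 562 without IK6 bexarotene replicate 1. Pathway genes called went from 33 to 21 for carbacyclin in MIG and from 27 to 15 for IK6 against MIG with carbacyclin (compared groups alone), from 12 to 23 for IK6 against MIG with bexarotene (without the 3 libraries), from 6 to 14 (compared groups alone) or 10 (DESeq2) for the ATRA interaction, from 11 to between 6 and 17 for the carbacyclin interaction, and from 7 to 4 for the bexarotene interaction (without IK6 bexarotene replicate 1).

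With a replicate block, the Angptl4 rises in MIG were 0.56 (bexarotene, adjusted p = 0.0527) and 0.50 (carbacyclin, 0.0512), its bexarotene interaction 1.06 (0.0547), Ucp2 in IK6 against MIG with DMSO -0.29 (0.0509), and Ucp3 in IK6 against MIG with ATRA -1.01 (0.0414, gained). The block changed no other member's call. Depth limits Pdk4, Ucp3 and Fabp4, which had 1090, 465 and 2 reads in all libraries.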
